A study of Homo sapiens with 11 samples.

Results

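The genes of the tissue inhibitors of metalloproteinases (TIMPs), with genes of the matrix metalloproteinases (MMPs) and of ADAM sheddases, were followed after transfection of the microRNA miR-365a-3p into 2 human cancer cell lines. The 10 genes were TIMP1, TIMP2, TIMP3, MMP1, MMP2, MMP3, MMP14, ADAM9, ADAM10 and ADAM17, out of 31325 gene symbols measured. They were chosen by a measured value, the fall of TIMP2 in both lines, and the other members were added as relatives of TIMP2. Their responses to miR-365a-3p are therefore given as a description with no p-value. Where a response is said to pass the threshold of the fit over all genes, this is part of the description and supports nothing. Their levels were tested between the control cells of the 2 lines, a contrast that was not used in the choice, although the control values of TIMP2 entered its fall. No filter on low values was applied, and all 10 genes had a value on every array.

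RNA came from MDA-MB-231, a triple-negative breast cancer line of mesenchymal character, and from SKOV3, an epithelial ovarian cancer line with amplified ERBB2. Each line was transfected with miR-365a-3p or with a control miRNA, and the groups held 3 arrays each apart from the SKOV3 controls with 2, 11 arrays in all. The sample labels give 48 h of treatment in every group, whereas the text on the series design has 24 h, and this was not resolved. The paper names the ovarian line as its derivative SKOV3.ip1. Nothing in the labels says whether arrays of a group came from separate cultures, so errors and p-values measure the spread between these arrays, which may be technical. A transfected mimic is a model of miRNA excess and was not compared here with the miRNA made by the cells.

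TIMPs are small secreted proteins that bind the active site of metalloproteinases and block it. MMPs are zinc enzymes that cut collagens and other matrix proteins, most of them secreted as inactive proenzymes, while MMP14 sits in the plasma membrane. TIMP2 has a double part, since with MMP14 it also forms the cell surface complex on which pro-MMP2 is activated. ADAMs are membrane-bound relatives that release the outer parts of growth factors, receptors and adhesion molecules from the cell. In breast and ovarian cancer cells these enzymes and their inhibitors are best known for their place in invasion and in the shedding of EGF receptor ligands.

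The sequence that all treated cells received is shown first, since its seed is the part of a miRNA that pairs with target messengers. The mature sequence is taken from RefSeq (GRCh38.p14, chr16:14309340-14309361, plus strand), with bases 2 to 8, the seed, in capitals. The second human copy of the gene, at chr17:31575478-31575499 on the plus strand, gives the same mature miRNA.
hsa-miR-365a-3p: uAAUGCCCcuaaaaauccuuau
A messenger that pairs with the whole seed holds GGGCAUU. Transcript sequences of the 10 genes were not used here, and whether any of them carries this match was not examined.

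Markers of the lines were checked on the control arrays. ERBB2 signal was 7.62, 7.53 and 7.67 on the MDA-MB-231 control arrays against 10.91 and 10.82 in SKOV3. EPCAM was likewise higher in SKOV3, as the labels would have it, and so was KRT8 (mean 10.20 against 9.20). KRT18, also an epithelial marker, was not higher there (mean 7.90 in SKOV3 against 8.01 in MDA-MB-231). ESR1 was at the floor in MDA-MB-231 controls (mean 7.28) and at 8.83 in SKOV3 controls. VIM, a mesenchymal marker, was high in both lines (13.69 to 13.86), and the epithelial cadherin CDH1 was near the floor in both, so these did not tell the lines apart. Values are on a log scale with a floor. They are read here as log2, which the sources do not state, so the folds below hold only on that reading. The 6 markers of blood and endothelial cells (among them PTPRC, CD3E, PECAM1, CDH5 and VWF) lay between 7.22 and 7.49 on all arrays. That range served as a yardstick of the floor, and a gene was taken as above it where it exceeded the highest of the 6 markers on the same array. This cut differed between groups. It was 7.44 to 7.49 on treated MDA-MB-231 arrays and 7.35 to 7.42 on their controls, so it was stricter with miR-365a-3p there. Of the 10 genes, 8 did so on every array of at least 1 group, and MMP2 and MMP3 did not. For a gene that reached the floor in a group, the difference understates the change. The deposited 75th percentile of MDA-MB-231 arrays was 7.91 ± 0.037 (SD, n = 3) in controls and fell to 7.62 ± 0.051 (SD, n = 3) in treated cells. That of SKOV3 arrays was likewise lower with miR-365a-3p, 7.74 ± 0.065 (SD, n = 3) beside 8.01 ± 0.043 (SD, n = 2). All arrays were therefore quantile normalized again, and values under other scalings are given beside many of the results. The shift followed treatment, and a technical shift and a true one cannot be told apart here. Quantile normalization removes both. After it, 69 of 81 ribosomal protein genes with a mean above 8 were higher with miR-365a-3p in MDA-MB-231 (median difference 0.34). In SKOV3 67 were higher (0.24), and the cause was not tested.

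**Figure D1:**
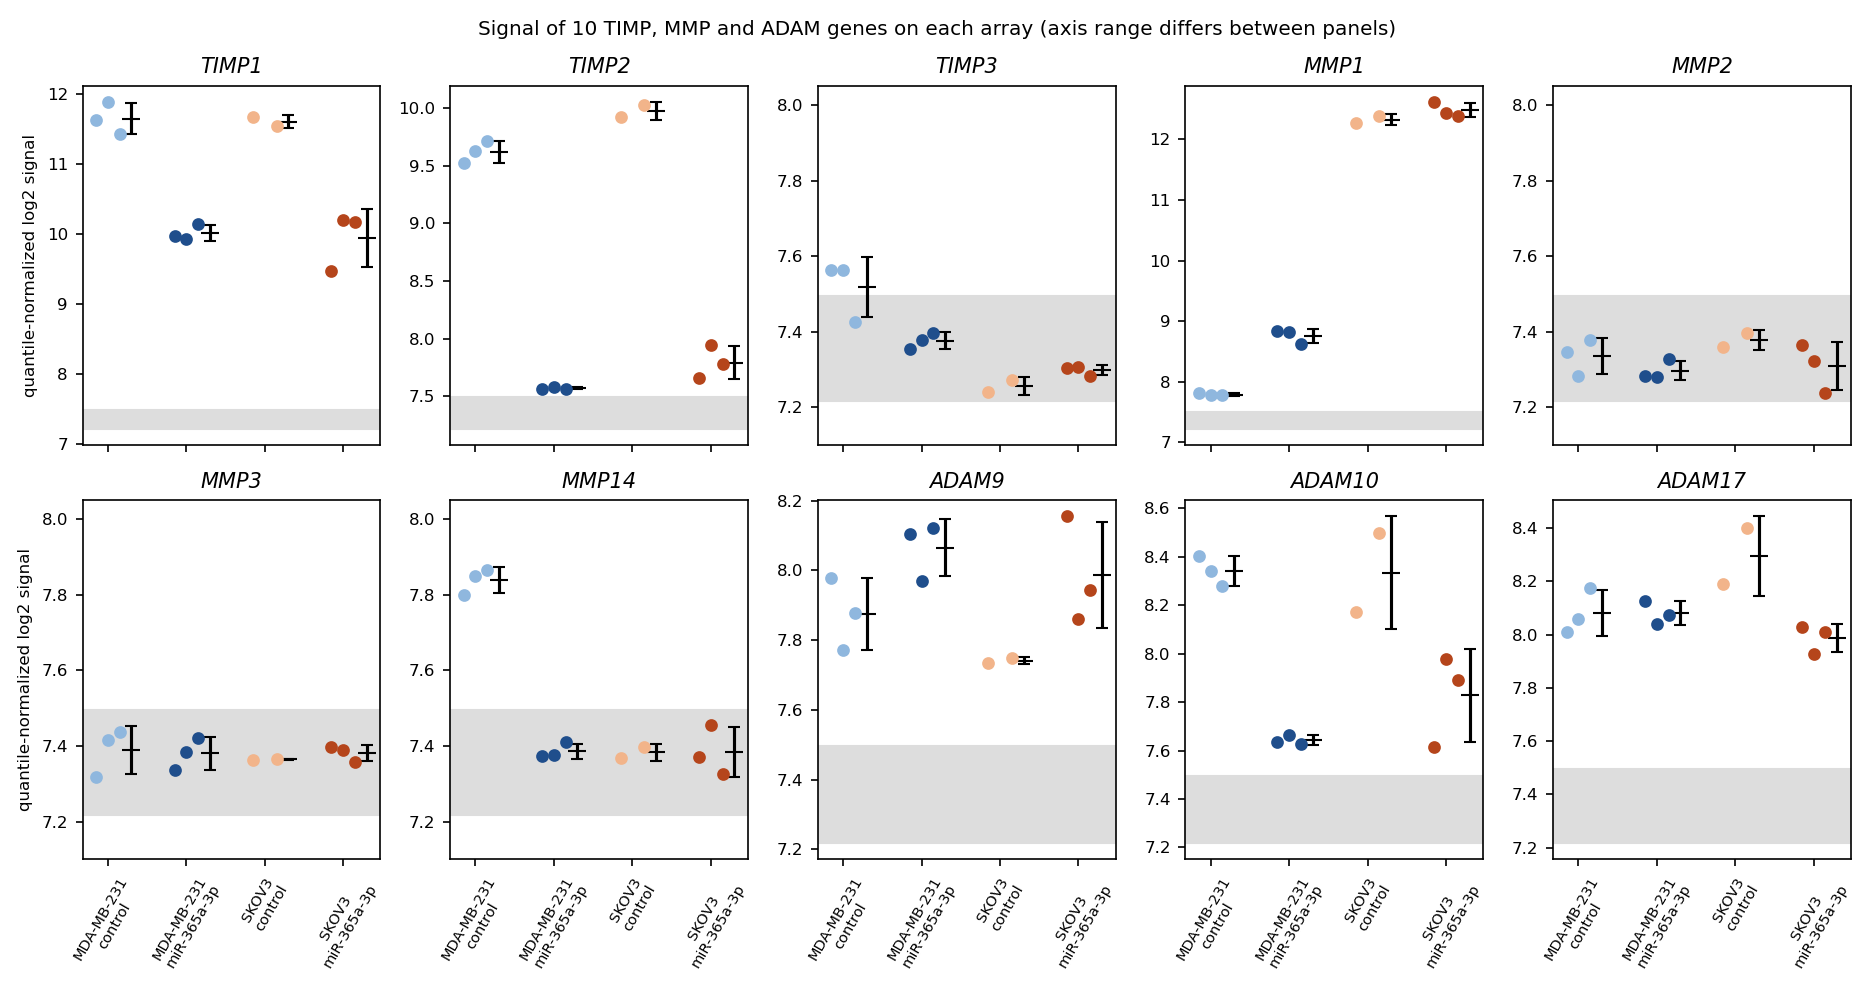
Quantile-normalized log2 signal (y axis, range set per panel) of the 10 genes on each array, grouped by cell line and treatment (x axis), with the mean and SD of each group beside its points and the range of 6 markers of other cell types in grey. TIMP1, TIMP2 and ADAM10 lie lower on every miR-365a-3p array than on any control array in both lines, MMP1 lies above 12 on all SKOV3 arrays, and MMP2 and MMP3 lie within the grey range.

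TIMP1, TIMP2 and ADAM10 were lower with miR-365a-3p in both lines, and none of the 10 was past the threshold upwards in both. In MDA-MB-231 cells MMP1 was also higher, and MMP14 and TIMP3 were lower, whereas in SKOV3 cells ADAM17 was lower. By the limma fit over all genes with Benjamini-Hochberg adjusted p under 0.05, 1 of the 10 genes was past the threshold upwards and 5 downwards in MDA-MB-231 cells, where 14.4% of all genes were called higher and 11.7% lower. In SKOV3 cells 0 of the 10 were past it upwards and 4 downwards, against 7.25% of all genes higher and 7.11% lower. In both lines with the same direction, 0 of the 10 were higher and 3 lower, against 5.76% and 5.39% of all genes. On the deposited values the 10 genes gave 1 upwards and 6 downwards in MDA-MB-231, and in SKOV3 they gave 1 upwards and 4 downwards with arrays centred on their median and 1 upwards and 5 downwards with array weights. Since the genes were chosen on this contrast, nothing is read from these shares. The median log2 difference of the 10 genes was -0.09 in MDA-MB-231 and -0.03 in SKOV3 cells, and that of all genes was 0.0064 and 0.0066. Of all genes called, 44.8% were lower in MDA-MB-231 and 49.5% in SKOV3 cells, and these splits were 71.2% and 78.6% on the deposited values and 59.1% and 67.7% with arrays centred on their median.

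TIMP2, the inhibitor by which the set was chosen, had the largest fall among the 10 genes in both lines. In MDA-MB-231 cells its signal was 9.52, 9.62 and 9.71 on the control arrays and 7.57, 7.58 and 7.56 with miR-365a-3p. The treated arrays lay close together and far below the controls, just above the floor. The log2 difference was -2.05 (SE 0.073), a 4.14-fold lower signal, which ranked 119 from the lowest of 31325 genes. In SKOV3 cells TIMP2 was 9.92 and 10.03 in controls and 7.66, 7.94 and 7.78 with miR-365a-3p. The groups again did not overlap, and the treated SKOV3 arrays were more spread than those of MDA-MB-231. The log2 difference was -2.18 (SE 0.082), a 4.53-fold lower signal, ranked 59 from the lowest. In RNA from a whole culture, fewer cells that carry a transcript and less of it per cell cannot be told apart, here and for every gene below. The fall ranged from -2.10 to -2.001 in MDA-MB-231 and from -2.26 to -2.11 in SKOV3 as each array was left out. Other scalings gave -2.22 and -2.32 on the deposited values and -1.89 and -2.08 after cyclic loess. The response of SKOV3 minus that of MDA-MB-231 was -0.13 (SE 0.11), less than 2 standard errors from 0.

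TIMP1, the inhibitor that is secreted by most cultured cells and acts on many MMPs, followed TIMP2. Its signal was 11.63, 11.89 and 11.44 on MDA-MB-231 control arrays and 9.97, 9.93 and 10.15 with miR-365a-3p. It was 11.68 and 11.54 on SKOV3 control arrays and 9.47, 10.21 and 10.17 with miR-365a-3p. Every treated array was below every control array, and replicate 1 of the treated SKOV3 cells was the lowest of all. The log2 difference was -1.63 (SE 0.19) in MDA-MB-231, 3.10-fold lower, and -1.66 (SE 0.22) in SKOV3, 3.16-fold lower. Without replicate 1 the SKOV3 value was -1.42. Unlike TIMP2, TIMP1 stayed well above the floor in treated cells.

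TIMP3, the inhibitor that binds to the matrix and also blocks ADAM17, had a signal near the floor. It was 7.56, 7.56 and 7.43 in MDA-MB-231 controls and 7.35, 7.38 and 7.40 with miR-365a-3p, a log2 difference of -0.14 (SE 0.036). Only the MDA-MB-231 controls were above the floor on every array. In SKOV3 cells TIMP3 was 7.24 and 7.27 in controls and 7.30, 7.31 and 7.28 with miR-365a-3p, a difference of 0.04 (SE 0.041). The SKOV3 values are within the range of the floor and carry no direction. In MDA-MB-231 cells TIMP3 was no longer past the threshold when replicate 1 or 2 of either group was left out.

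MMP1, interstitial collagenase, which opens the triple helix of fibrillar collagens, was the only gene of the 10 past the threshold upwards. In MDA-MB-231 cells its signal was 7.81, 7.78 and 7.77 in controls and 8.84, 8.81 and 8.63 with miR-365a-3p. All treated arrays exceeded all controls, and the log2 difference was 0.97 (SE 0.071), 1.96-fold higher. On the deposited values it was 0.65, with arrays centred on their median 0.68 and after cyclic loess 0.72. In SKOV3 cells MMP1 was 12.27 and 12.39 in controls and 12.61, 12.45 and 12.39 with miR-365a-3p. The lowest treated array and the highest control were nearly equal, and the difference was 0.15 (SE 0.079), with 0.32 on the deposited values. The SKOV3 response was 0.82 below that of MDA-MB-231 by the fit (log2 difference of responses -0.82, SE 0.11), but -0.33 on the deposited values and -0.40 after cyclic loess.

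MMP14, the membrane-type enzyme that activates pro-MMP2, was above the floor on all arrays of only the MDA-MB-231 controls. Its signal was 7.80, 7.85 and 7.87 there and 7.37, 7.38 and 7.41 with miR-365a-3p, a log2 difference of -0.45 (SE 0.034). Treated MDA-MB-231 cells thus had the signal of the floor. SKOV3 cells had 7.37 and 7.40 in controls and 7.37, 7.46 and 7.33 with miR-365a-3p, where replicate 2 alone exceeded the markers of its array. The SKOV3 difference was 0.00 (SE 0.038), with the signal at or near the floor in both groups. For the difference of the responses, 2 of the 10 genes passed the threshold, MMP1 with a lower and MMP14 with a higher value in SKOV3, against 2.54% of all genes in either direction, and nothing is read from this count either. MMP1 no longer passed on the deposited values, with arrays centred on their median or after cyclic loess.

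MMP2, gelatinase A, and MMP3, stromelysin 1, were above the floor on all arrays of no group. By the marker of the same array, MMP2 exceeded it on 1 and MMP3 on 2 of the 3 MDA-MB-231 control arrays, and neither did elsewhere. MMP2 lay between 7.24 and 7.40 and MMP3 between 7.32 and 7.44 over the 11 arrays. Their differences were between -0.07 and 0.02 on the log2 scale, and changes in these enzymes below the reach of the array cannot be read from them.

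ADAM10, the sheddase of Notch receptors, CD44 and several EGF receptor ligands, was lower in both lines. Its signal was 8.40, 8.34 and 8.28 in MDA-MB-231 controls and 7.63, 7.67 and 7.63 with miR-365a-3p. In SKOV3 it was 8.17 and 8.50 in controls and 7.61, 7.98 and 7.89 with miR-365a-3p. The groups did not overlap in either line, but the SKOV3 controls lay further apart than any group of MDA-MB-231. The log2 difference was -0.70 (SE 0.10), 1.62-fold lower, in MDA-MB-231 and -0.51 (SE 0.12), 1.42-fold lower, in SKOV3. Without replicate 2 of the SKOV3 controls it was -0.34 and no longer past the threshold, and without replicate 1 of the treated SKOV3 cells it was -0.40. On the deposited values the falls were larger, -0.97 and -0.79.

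ADAM17, the enzyme that releases TNF and transforming growth factor alpha, was past the threshold in SKOV3 but not in MDA-MB-231. In MDA-MB-231 it was 8.01, 8.06 and 8.18 in controls and 8.13, 8.04 and 8.08 with miR-365a-3p, and the groups overlapped. In SKOV3 it was 8.19 and 8.40 in controls and 8.03, 7.93 and 8.01 with miR-365a-3p, without overlap. The log2 differences were -0.00 (SE 0.062) and -0.31 (SE 0.069), but -0.37 and -0.62 on the deposited values, where both lines passed the threshold. Without replicate 2 of the SKOV3 controls the SKOV3 value was -0.20 and did not pass. The response in SKOV3 minus that in MDA-MB-231 was -0.31 (SE 0.092), which was not past the threshold.

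ADAM9, a sheddase with broad expression, had a direction that depended on the scaling. Its signal was 7.98, 7.77 and 7.88 in MDA-MB-231 controls and 8.10, 7.97 and 8.12 with miR-365a-3p, with overlap. It was 7.73 and 7.75 in SKOV3 controls and 8.15, 7.86 and 7.94 with miR-365a-3p. The log2 differences were 0.19 (SE 0.081) and 0.24 (SE 0.090) after quantile normalization, neither past the threshold, and -0.15 and -0.01 on the deposited values.

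**Figure D2:**
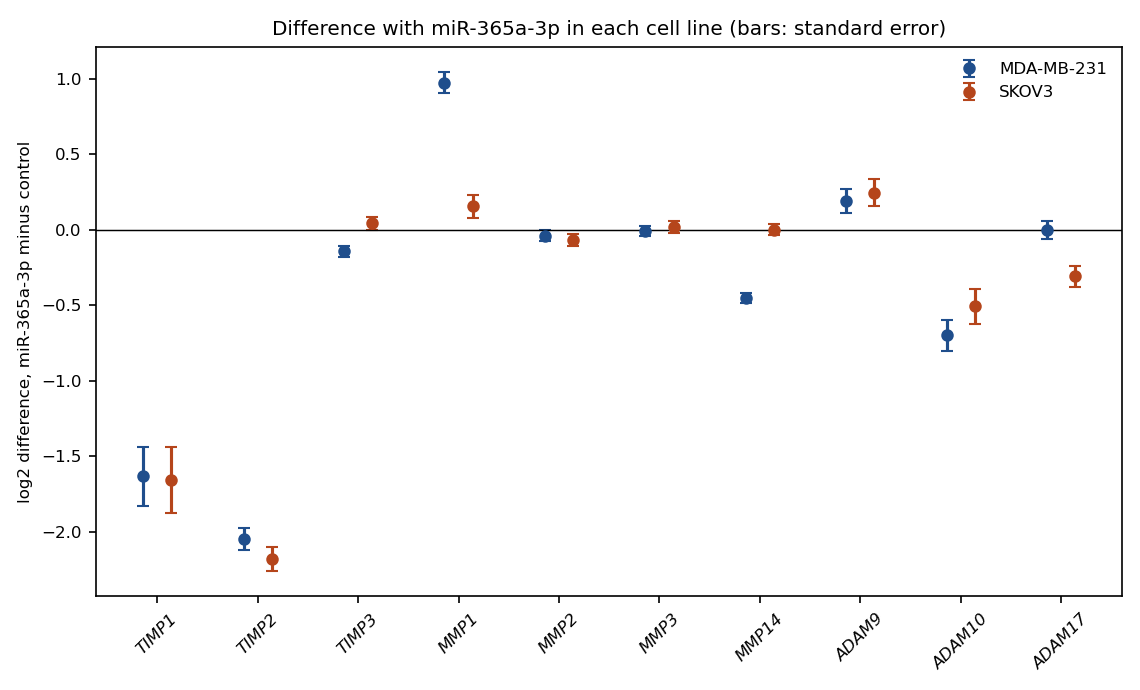
Log2 difference between miR-365a-3p and control arrays (y axis) for each of the 10 genes (x axis), with MDA-MB-231 in blue, SKOV3 in orange and bars for the standard error of the fit. TIMP2 and TIMP1 lie below -1 in both lines, MMP1 stood at 0.97 in MDA-MB-231 and 0.15 in SKOV3, and the small values of ADAM9 and of ADAM17 in MDA-MB-231 changed with the scaling, to -0.15 and -0.37 in MDA-MB-231 on the deposited values.

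The levels of the 10 genes in control cells were compared between the lines next, since this contrast took no part in the choice of the genes. It shares its control arrays with the contrasts above. MMP1 separated the lines most, with 7.78 ± 0.019 (SD, n = 3) in MDA-MB-231 and 12.33 ± 0.085 (SD, n = 2) in SKOV3. The log2 difference of 4.55 (SE 0.079), 23.3-fold, had a limma adjusted p of 2.11e-08, and only 2 of 31325 genes had a larger positive difference. It was between 4.48 and 4.61 as each array was left out and between 4.27 and 4.31 with the other scalings. MMP14 was lower in SKOV3, with 7.38 ± 0.022 (SD, n = 2) at the floor against 7.84 ± 0.035 (SD, n = 3). Its log2 difference was -0.46 (SE 0.038, limma adjusted p = 6.49e-05). Of the collagen-cutting enzymes, the secreted MMP1 was thus higher in the ovarian line and the membrane-bound MMP14 in the breast line.

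Among the inhibitors, TIMP3 was lower in SKOV3 controls, with a log2 difference of -0.26 (SE 0.041, limma adjusted p = 0.00227), with the SKOV3 value at the floor. TIMP2 was higher there, 9.97 ± 0.075 (SD, n = 2) against 9.62 ± 0.096 (SD, n = 3), with a log2 difference of 0.35 (SE 0.082, limma adjusted p = 0.0173). The call on TIMP2 ended without MDA-MB-231 control replicate 1 (limma adjusted p = 0.0520) and without SKOV3 control replicate 1 (0.0537) or 2 (0.153). With an intensity trend and robust moderation it was 0.0674. TIMP1 did not differ past the threshold, 11.65 ± 0.22 (SD, n = 3) against 11.61 ± 0.097 (SD, n = 2), a difference of -0.04 (SE 0.22, limma adjusted p = 0.962). Its standard error was the largest of the 10 genes.

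None of the ADAMs passed the test between the control groups. ADAM17 came nearest, with a log2 difference of 0.21 (SE 0.069, limma adjusted p = 0.0753), and passed on the deposited values (0.32, limma adjusted p = 0.0195) and with arrays centred on their median (0.30, limma adjusted p = 0.0225). ADAM10 differed by -0.01 (SE 0.12, limma adjusted p = 0.989) and ADAM9 by -0.13 (SE 0.090, limma adjusted p = 0.475). In all, 2 of the 10 genes were higher and 2 lower in SKOV3 controls, where 8.34% of all genes were called higher and 7.76% lower. The median difference of the 10 genes was -0.02, next to -0.0030 for all genes. On the deposited values 36.1% of all genes called were lower in SKOV3 against 48.2% in the fit.

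**Figure D3:**
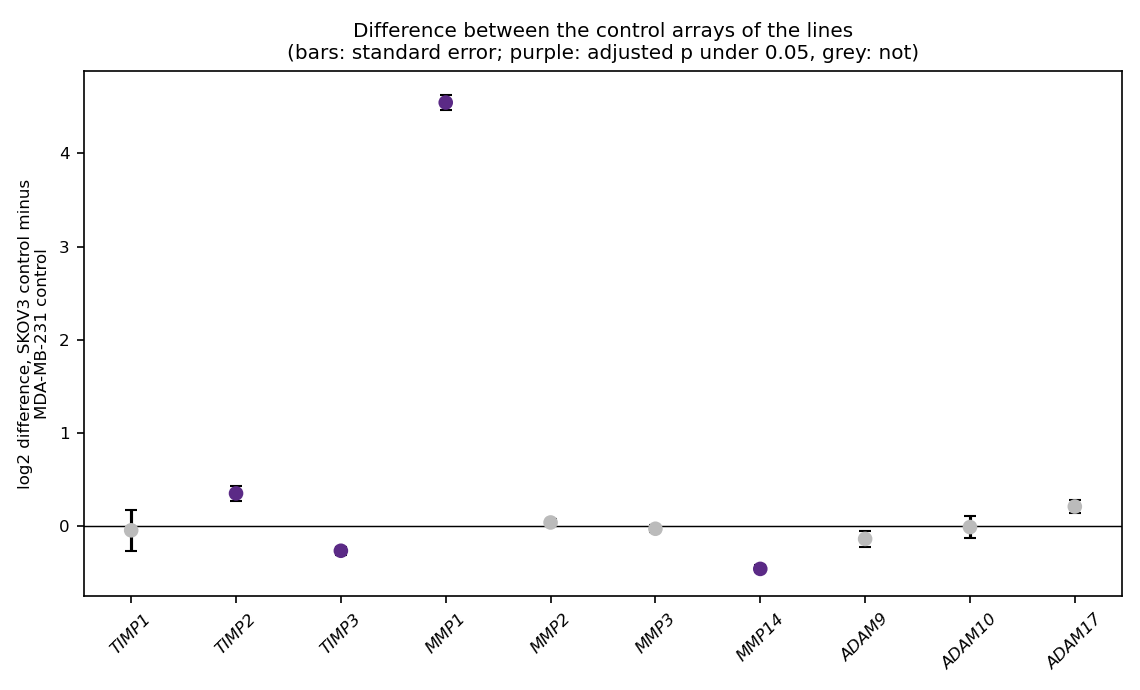
Log2 difference between the SKOV3 and the MDA-MB-231 control arrays (y axis) for each of the 10 genes (x axis), with bars for the standard error and purple points for a limma adjusted p under 0.05. MMP1 stands at 4.55, TIMP2 at 0.35, TIMP3 at -0.26 and MMP14 at -0.46, and the other genes are grey.

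The table of RefSeq promoters used here (GRCh38.p14, 250 bases before each start) was matched by 5 of the 10 genes: TIMP1, TIMP3, MMP14, ADAM10 and ADAM17. Those of TIMP1 (chrX:47582186-47582435, plus strand) and ADAM10 (chr15:58749708-58749957, minus strand) are shown because both genes were lower in both lines, with GC boxes in capitals.
TIMP1: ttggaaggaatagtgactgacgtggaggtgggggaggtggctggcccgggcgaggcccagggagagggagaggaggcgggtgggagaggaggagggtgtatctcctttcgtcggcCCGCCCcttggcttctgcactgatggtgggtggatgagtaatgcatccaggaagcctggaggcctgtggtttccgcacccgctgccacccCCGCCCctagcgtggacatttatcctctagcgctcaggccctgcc
ADAM10: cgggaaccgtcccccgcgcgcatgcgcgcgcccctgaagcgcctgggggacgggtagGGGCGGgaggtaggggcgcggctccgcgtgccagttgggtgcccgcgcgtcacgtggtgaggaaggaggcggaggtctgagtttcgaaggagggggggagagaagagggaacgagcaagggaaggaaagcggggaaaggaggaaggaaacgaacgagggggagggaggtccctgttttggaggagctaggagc
The GC box was searched as GGGCGG and its reverse complement CCGCCC, the AP-1 element as TGAGTCA or TGACTCA and the TATA box as TATAAA or TTTATA. The TIMP1 window held 2 GC boxes and that of ADAM10 1, while those of TIMP3, MMP14 and ADAM17 held 5, 1 and 3. None of the 5 windows held the AP-1 or the TATA letters. Variants of these letters were not searched, so the windows may still hold such elements. Of 35116 promoters of the same length, 42.6% held a GC box, 4.20% the AP-1 letters and 10.7% the TATA letters. These matches describe the windows and say nothing of the factors.

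The genes whose signal followed that of TIMP2 most closely over the 11 arrays, among 6852 other genes with a mean above 8, were SERTAD2 and LPP (both Pearson r = 0.997), PALLD (0.995), SPTAN1 (0.995) and SMARCA4 (0.994). LPP and PALLD code for proteins of the actin cytoskeleton and its adhesions, SPTAN1 for a spectrin and SMARCA4 for a chromatin remodelling ATPase. The arrays form 4 groups of the same treatments, which all 11 points share. The log2 differences in MDA-MB-231 and SKOV3 were -2.22 and -2.40 for SERTAD2 and -2.59 and -2.71 for LPP.

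The rest of the pathway was read from 98 further genes, made up of the other MMPs, ADAMs, ADAMTS enzymes and inhibitors, of activators and partners, of ADAM substrates and of AP-1 and ETS factors. In MDA-MB-231 cells 25 of them were called lower and 4 higher, in SKOV3 cells 10 lower and 5 higher, and in both lines 9 lower and 0 higher (limma adjusted p under 0.05). Of all genes, 11.7% were lower and 14.4% higher in MDA-MB-231, 7.11% and 7.25% in SKOV3, and 5.39% and 5.76% in both, and 51 of the 98 were above the floor on all arrays of some group. Their median log2 difference was -0.01 in each line. On the deposited values 23 fell and 1 rose with miR-365a-3p in SKOV3, so that 95.8% of the calls were lower against 66.7% in the fit. The 9 genes called lower in both lines were RECK, PLAU, BSG, RHBDF1, RHBDF2, TGFA, NOTCH1, NOTCH2 and CD44, with NOTCH2 near the floor in all groups.

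**Figure D4:**
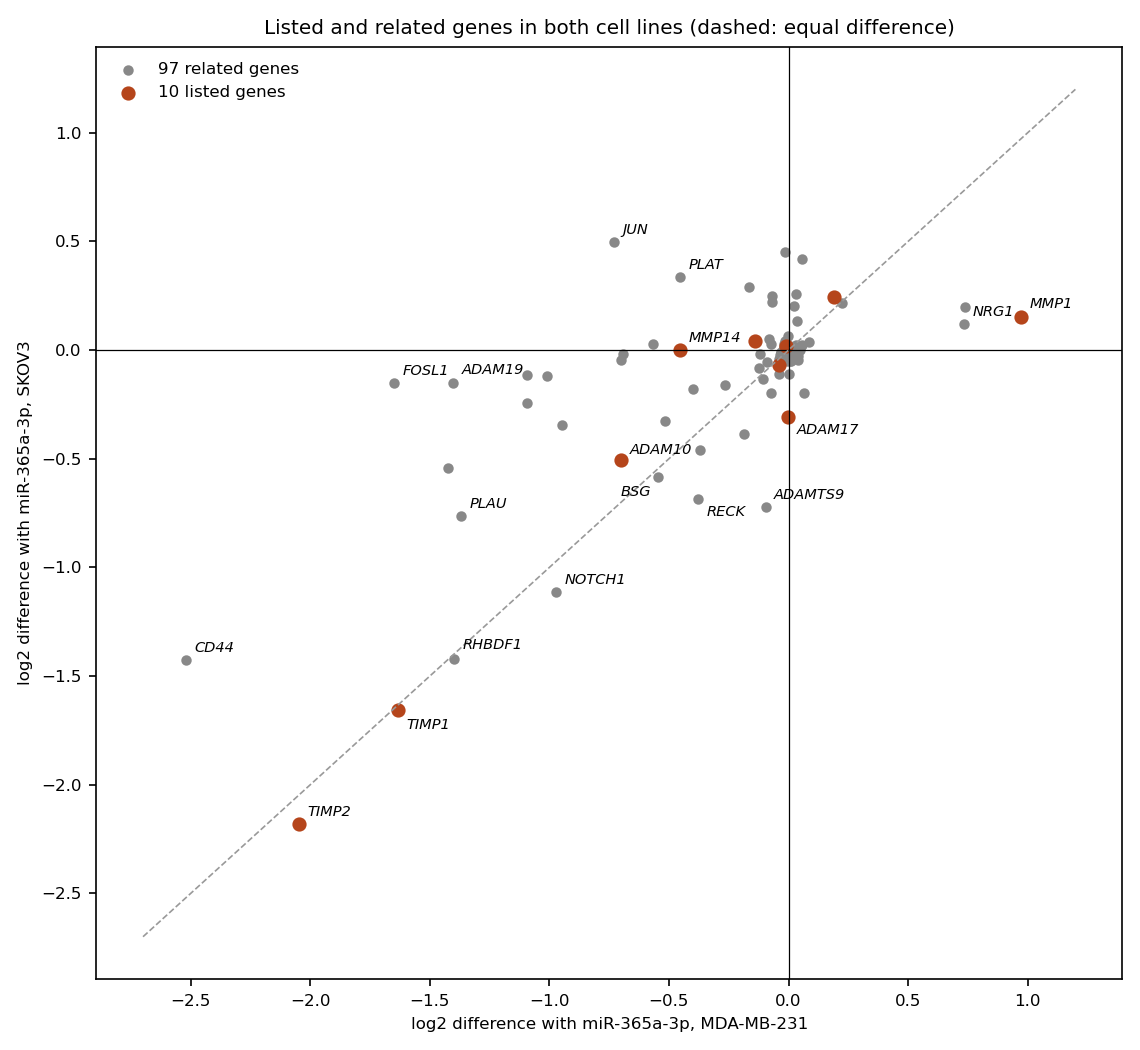
Log2 difference with miR-365a-3p in MDA-MB-231 (x axis) and SKOV3 cells (y axis) for the 10 genes in orange and 97 related genes in grey, with a dashed line of equal difference. TIMP1, TIMP2, RHBDF1 and NOTCH1 lie near the line, whereas FOSL1 and ADAM19 lie far above it, with a larger fall in MDA-MB-231.

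RECK, a membrane-anchored inhibitor of several MMPs, was the only other inhibitor that fell. Its signal was 7.84, 7.77 and 7.69 in MDA-MB-231 controls and 7.33, 7.41 and 7.43 with miR-365a-3p, at the floor. In SKOV3 it was 8.45 and 8.49 in controls and 7.59, 7.94 and 7.81 with miR-365a-3p. The log2 difference was -0.38 (limma adjusted p = 0.00779) in MDA-MB-231 and -0.69 (limma adjusted p = 0.00141) in SKOV3. After cyclic loess the MDA-MB-231 call was lost (limma adjusted p = 0.0737). TIMP4 was near the floor in all groups and did not pass in either line.

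Of the 20 further MMPs, 7 were above the floor on all arrays of some group, and a change in the others could not be seen. MMP11 passed with 0.08 in MDA-MB-231 cells, near the floor in both groups, a call that was lost on the deposited values. The call was also lost without treated replicate 1, 2 or 3 (limma adjusted p = 0.0718, 0.111 and 0.136). Without MDA-MB-231 control replicate 2 or 3 it was lost too (0.109 and 0.165). No MMP passed in SKOV3. Together with the 4 listed MMPs, only 9 of 24 were above the floor in any group. Between the control groups, MMP7, matrilysin, was at the floor in MDA-MB-231 with 7.29, 7.27 and 7.31 and at 11.23 and 11.10 in SKOV3, a log2 difference of 3.87 (limma adjusted p = 4.84e-07). MMP10, stromelysin 2, was 1.46 higher in SKOV3 (limma adjusted p = 1.05e-05). Like MMP1, both were higher in the ovarian line. In SKOV3 cells MMP7 differed by 0.45 with miR-365a-3p, which did not pass (limma adjusted p = 0.0591).

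Among 18 further ADAMs, ADAM8, ADAM15 and ADAM19 fell in MDA-MB-231 cells and none passed in SKOV3 cells. ADAM19, a sheddase of neuregulin, was 9.002, 8.83 and 9.07 in MDA-MB-231 controls and 7.48, 7.56 and 7.65 with miR-365a-3p, a log2 difference of -1.40 (limma adjusted p = 7.00e-06). In SKOV3 it was 7.61 and 7.62 in controls and 7.37, 7.53 and 7.49 with miR-365a-3p, near the floor before treatment. Of 19 ADAMTS genes, which code for secreted proteases of proteoglycans and procollagen, ADAMTS1 fell by 1.09 in MDA-MB-231 (limma adjusted p = 1.99e-05) and ADAMTS9 fell by 0.72 in SKOV3 (limma adjusted p = 0.000217).

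Of 16 activators and partners, 8 fell and 0 rose in MDA-MB-231 cells, beside 11.7% of all genes lower and 14.4% higher. In SKOV3 cells 4 fell and 4 rose, beside 7.11% and 7.25% of all genes. Of the 16, 15 were above the floor on all arrays of some group. Calls were more frequent among genes with more signal. In a fit of the 15662 genes above the median mean, 3652 were lower and 4675 higher in MDA-MB-231. In SKOV3 that fit gave 2328 lower and 2804 higher, and nothing is read from the counts of the 16. PLAU, the urokinase that starts the plasmin cascade, fell by 1.37 (limma adjusted p = 0.000228) and by 0.77 (limma adjusted p = 0.0138). The SKOV3 call on PLAU was lost without control replicate 1 (limma adjusted p = 0.0997) or 2 (0.0827). RHBDF1, an inactive rhomboid that guides ADAM17 to the cell surface, fell by 1.40 and 1.42 (limma adjusted p = 0.000284 and 0.000971). Its relative RHBDF2 fell by 0.52 and 0.32, ending near the floor. BSG, an inducer of MMPs, fell by 0.55 and 0.58 (limma adjusted p = 0.00240 and 0.00604), and its SKOV3 call was lost without control replicate 1 (0.0510) or 2 (0.0516). PLAT, the tissue plasminogen activator, fell by 0.45 in MDA-MB-231 (limma adjusted p = 0.000873) and rose in SKOV3 from 7.49 and 7.48 to 7.84, 7.73 and 7.90. The SKOV3 difference of 0.34 (limma adjusted p = 0.0133) did not pass on the deposited values (0.148), without control replicate 1 (0.0815) or without control replicate 2 (0.0997).

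Among 14 substrates of the ADAMs, 6 fell and 1 rose in MDA-MB-231 cells, and 4 fell and 0 rose in SKOV3 cells. The shares of all genes were 11.7% lower and 14.4% higher in the first line and 7.11% and 7.25% in the second. Of the 14, 9 were above the floor on all arrays of some group. In the fit of the 15662 genes above the median mean, 3652 were lower and 4675 higher in MDA-MB-231. In SKOV3 that fit gave 2328 lower and 2804 higher, and nothing is read from the counts of the 14. CD44, the hyaluronan receptor, was 11.58, 11.03 and 11.17 in MDA-MB-231 controls and 8.44, 8.84 and 8.93 with miR-365a-3p. In SKOV3 it was 10.49 and 10.46 in controls and 8.69, 9.45 and 8.99 with miR-365a-3p. Both pairs of groups stood well apart, with log2 differences of -2.52 (limma adjusted p = 7.81e-05) and -1.43 (limma adjusted p = 0.00491). NOTCH1, a receptor cut by ADAM10, fell by 0.97 and 1.11 (limma adjusted p = 0.00335 and 0.00581), and the SKOV3 call was lost without control replicate 1 (0.0612). TGFA, the growth factor released by ADAM17, fell by 0.95 and 0.34 (limma adjusted p = 2.66e-06 and 0.00120). NOTCH2 passed with -0.12 and -0.08, at the floor in treated cells and near it in controls. No group had it above the floor on all arrays, and this was not a change that the arrays could size. In SKOV3 its call was lost with arrays centred on their median (limma adjusted p = 0.0541), without control replicate 1 (0.185) or 2 (0.153), without treated replicate 2 (0.0706) or 3 (0.0787), and without replicate 2 of the treated MDA-MB-231 cells (0.0510).

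Of 9 AP-1 and ETS factors, which bind many MMP and TIMP promoters, 4 fell and 1 rose in MDA-MB-231 cells and 1 rose in SKOV3 cells. All genes gave 11.7% lower and 14.4% higher in MDA-MB-231 and 7.11% and 7.25% in SKOV3. All 9 factors were above the floor on all arrays of some group. In the fit of the 15662 genes above the median mean, 3652 were lower and 4675 higher in MDA-MB-231. In SKOV3 that fit gave 2328 lower and 2804 higher, and nothing is read from the counts of the 9. FOSL1 was 8.91, 9.31 and 9.29 in MDA-MB-231 controls and 7.51, 7.50 and 7.56 with miR-365a-3p, a log2 difference of -1.65 (limma adjusted p = 1.21e-05). SKOV3 controls had 7.56 and 7.62, close to the floor before treatment. JUN fell by 0.73 in MDA-MB-231 (limma adjusted p = 0.000221) and rose by 0.50 in SKOV3 (limma adjusted p = 0.00541), where the rise was 0.23 on the deposited values and did not pass (limma adjusted p = 0.266). Between the control groups PLAT was lower in SKOV3, with a log2 difference of -2.21 (limma adjusted p = 2.82e-07). HBEGF, FOSL1 and PLAU were also lower in SKOV3 controls, by -1.71, -1.58 and -1.53. TSPAN33 and TSPAN14, tetraspanins that accompany ADAM10, and ADAMTS9 were higher there, by 1.29, 0.87 and 0.88.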

How the data were processed

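Expression was measured on 11 single-colour arrays of Illumina Expression BeadChips, in 4 groups set by the sample labels. The authors applied lumi's quantile normalization and deposited 1 log-scale value per gene symbol, 31325 in all, which is read here as log2. Whether the transformation was log2 or variance stabilizing, whether background was subtracted and how probes of a gene were combined are not given in the sources used here. Array number limits the precision. All columns were used.

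The deposited columns did not share a distribution and were quantile normalized with limma 3.58.1 in R 4.3.3. Group means were fitted for all genes (lmFit) with contrasts of miR-365a-3p minus control in each line, SKOV3 minus MDA-MB-231 controls, and the difference of both responses, moderated with eBayes and adjusted by Benjamini-Hochberg over 31325 genes at 0.05. The fit was tested on simulated data first.

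The 10 genes, the further lists and the tests were chosen with earlier results of these data known. Besides the 10, genes were named that were called in both lines, for the difference between lines, or among the 5 largest differences each way between controls, and 5 genes most correlated with TIMP2. ADAM15, MMP11 and TIMP4 fall outside this rule and were named after their values were seen. A gene that the rule names and a marker are in the counts and the yardstick but are not reported here. Of 108 symbols, 108 matched RefSeq.

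Alternatives were deposited values, median centring, cyclic loess, each line alone, genes above the median mean, a replicate block, trend and robust moderation, array weights, a threshold of 0.01, and each array left out. Seed sites were not searched, since transcript sequences were not used here.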

Additional observations from a re-analysis of the deposited data

Results flagged for a closer look

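The 10 listed genes are not counted here, since their difference of responses is given as a description only. By the limma test of SKOV3 response minus MDA-MB-231 response, 2.54% of all genes were called in either direction. Among the 98 further genes, the response of 12 differed between the lines by this test. Of these, 11 are given here. The log2 difference of the responses was 1.50 for FOSL1 (adjusted p = 0.00132), 1.25 for ADAM19 (0.000851) and 1.23 for JUN (0.00126). It was 0.98 for JAG1 (adjusted p = 0.00168), 0.85 for ADAMTS1 (0.00446), 0.79 for PLAT (0.00369), 0.65 for ADAM8 (0.000394) and 0.60 for TGFA (0.00138). For HBEGF it was 0.68 (adjusted p = 0.0267), with an adjusted p of up to 0.134 when an array was left out. In 2 genes the response was lower in SKOV3, ADAMTS9 with -0.63 (adjusted p = 0.00758, and 0.0519 without SKOV3 control replicate 1) and NRG1 with -0.62 (adjusted p = 0.034). The call on NRG1 was lost on the deposited values (0.0749) and after cyclic loess (0.106), with an adjusted p of up to 0.156 when an array was left out. SKOV3 controls were near the floor for ADAM8, ADAM19, FOSL1 and HBEGF, and MDA-MB-231 controls for ADAMTS9, so the size of a fall there could not be measured. They were also near it for PLAT (mean 7.49 in SKOV3 controls) and NRG1 (7.42). For these 2 genes the SKOV3 mean was higher with miR-365a-3p (7.82 and 7.54), from a start near the floor. The part of the floor in these differences was not tested.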

How the results depend on the processing

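Of the genes called in SKOV3 cells by adjusted p under 0.05, 4498 among all genes became 2825 when the line was fitted alone, 7213 with array weights and 2358 at a threshold of 0.01. The 15 further genes called there became 24 on the deposited values, 26 with array weights and 9 at 0.01, and the 4 of the 10 listed genes became 2 with the line alone and 2 at 0.01. Between the control groups 5043 calls became 3261 at 0.01, and for the difference of responses 796 became 1887 with array weights and 327 at 0.01. The 2 listed genes past that threshold became 1 on the deposited values, 1 with median centring and 1 after cyclic loess.

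As each array was left out, calls over all genes ran from 6569 to 8678 (MDA-MB-231), 1775 to 5002 (SKOV3), 3023 to 5680 (controls) and 301 to 1225 (difference). Further genes ran from 26 to 29, 7 to 20, 22 to 32 and 9 to 13, and listed genes from 5 to 7, 2 to 4, 3 to 5 and 2 to 3. The sign of 2 uncalled differences between controls turned, for TIMP1 (range -0.15 to 0.075 as arrays were left out, with 0.075 without MDA-MB-231 control replicate 2, 0.026 without SKOV3 control replicate 2) and for ADAM10 (range -0.17 to 0.157 as arrays were left out, 0.090 deposited, 0.077 median centred, 0.0086 with array weights, 0.024 without MDA-MB-231 control replicate 1, 0.157 without SKOV3 control replicate 1). The cause was not tested.

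Pairing was checked on the deviations of each array from its group mean, over 6853 genes. For same-numbered treated and control arrays these deviations correlated at -0.125, 0.042 and 0.232 in MDA-MB-231 and 0.039 and -0.073 in SKOV3. These values showed no steady pairing by number, but the check could not exclude one. Deviations from the mean of 2 or 3 arrays are tied to one another, and those of the 2 SKOV3 controls are mirror images. With a replicate block, 6758, 3097, 4634 and 537 genes were called, of which 5, 3, 4 and 2 were listed and 25, 10, 28 and 11 further genes, and the SKOV3 call on CD44 was lost (adjusted p = 0.0682). The difference of responses has no fit of 1 line alone.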
